A study of Mus musculus with 2 samples.

Results

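Neutrophils are short-lived phagocytes of the blood, and their open chromatin was described here at one kind of place, the intergenic DNA near genes. The regions lie outside every gene body of GENCODE M21, with the nearest transcript start site more than 1 kb and at most 50 kb from the region's summit, the base at which the highest peak of the region was placed. They were chosen by position alone, from the authors' list of peaks that were reproducible between replicates in the pooled data. Its 33147 peaks merged into 24882 regions, of which 5559 were intergenic regions of this kind, or 22.3% (95% Wilson interval 21.8 to 22.9). Another 11644 regions had their summit within 1 kb of a start site, called promoters here, 6499 lay in introns, 816 in exons and 364 in intergenic DNA farther than 50 kb from a start site. The Wilson intervals here, and the Newcombe intervals given for differences between shares, are 95% intervals and cover counting error only.

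Open regions away from promoters, in intergenic DNA and in introns, hold many of a cell type's enhancers and insulators. Enhancers are stretches where sequence-specific factors bind together and raise transcription of a gene at a distance, and in myeloid cells PU.1, the C/EBP family, RUNX1 and AP-1 are the best known of these factors. Insulators and loop anchors are bound by CTCF, a zinc finger protein that halts the cohesin ring and is present in nearly all cell types.

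The libraries came from peripheral blood neutrophils of adult C57BL/6J mice, 5 to 6 weeks old, with no treatment or genetic change named. ATAC-seq was used, in which a transposase cuts accessible DNA and leaves sequencing adapters there. There was 1 group with 2 libraries, biological replicates 1 and 2, each from 50000 cells. Both carry the same donor record and separate mice are not mentioned, so the spread between them may be technical. No purification step is named, and the read depth is unknown because the files hold peaks and no counts. As a check of the label, promoters listed in both replicates were counted for marker genes: 6 of 13 neutrophil markers were open, as were 6 of 8 B cell markers, 1 of 7 T cell markers, and none of 5 natural killer cell, 5 monocyte, 5 erythroid and 4 platelet markers. The share of open promoters over all genes is not given here, so whether these marker counts exceed it is not known. The part of other blood cells in the regions below was not tested.

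Sequences carry much of what follows, so the strongest regions with each main motif are shown before the values. Each is the 101 bp window centred on the summit, read from the plus strand of GRCm38, the build the files use as mm10, with matches to the motifs in capitals. The strings searched, on both strands, were GAGGAAGT for PU.1, TTGCNNAA for C/EBP, TGTGGTT for RUNX and TGANTCA for AP-1, where N is any base. The longer CTCF core was searched the same way. For PU.1, C/EBP, RUNX, AP-1 and CTCF in turn, the windows with the highest signal values were:
PU.1 region 1, chrX:107250572-107250672: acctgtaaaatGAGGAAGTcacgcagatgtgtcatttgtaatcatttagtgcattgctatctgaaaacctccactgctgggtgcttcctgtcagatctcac
PU.1 region 2, chr19:61244842-61244942: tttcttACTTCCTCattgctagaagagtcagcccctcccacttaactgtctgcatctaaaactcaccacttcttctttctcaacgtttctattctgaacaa
CEBP region 1, chr4:88641093-88641193: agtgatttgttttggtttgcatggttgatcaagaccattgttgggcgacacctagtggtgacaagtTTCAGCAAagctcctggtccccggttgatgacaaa
CEBP region 2, chr11:20133093-20133193: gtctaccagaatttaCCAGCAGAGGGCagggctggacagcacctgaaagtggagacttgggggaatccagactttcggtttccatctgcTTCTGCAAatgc
RUNX region 1, chr7:104603313-104603413: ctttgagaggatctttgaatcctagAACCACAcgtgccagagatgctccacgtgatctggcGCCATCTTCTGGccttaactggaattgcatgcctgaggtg
RUNX region 2, chr6:149375284-149375384: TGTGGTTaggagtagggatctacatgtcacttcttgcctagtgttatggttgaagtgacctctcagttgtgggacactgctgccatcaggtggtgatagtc
AP-1 region 1, chr8:109750814-109750914: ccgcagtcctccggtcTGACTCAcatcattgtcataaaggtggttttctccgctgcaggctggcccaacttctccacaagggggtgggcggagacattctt
AP-1 region 2, chr5:16469995-16470095: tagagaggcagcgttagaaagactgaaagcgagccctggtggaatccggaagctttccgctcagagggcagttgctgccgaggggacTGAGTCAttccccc
CTCF region 2, chr9:7897667-7897767: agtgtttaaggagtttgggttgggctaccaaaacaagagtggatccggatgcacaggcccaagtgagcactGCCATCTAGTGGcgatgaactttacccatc
The strongest window with a CTCF match is the same window as RUNX region 1, and CEBP region 2 holds a CTCF match as well. In the PU.1 windows the match was centred at −35.5 and −40.5 bp from the summit, and in CTCF region 2 at 26.5 bp. PU.1 region 1 lay 5.26 kb upstream of Gpr174, which encodes a receptor for lysophosphatidylserine, and CTCF region 2 lay 24.5 kb upstream of Birc3, an inhibitor of apoptosis. The authors' signal value, a score without a stated unit, was 25.9 at PU.1 region 1 in the pooled list, 25.3 in replicate 1 and 13.7 in replicate 2. At CTCF region 2 it was 24.6 in the pooled list, 23.4 in replicate 1 and 15.3 in replicate 2. At AP-1 region 2, 39.1 kb downstream of the start of Gm8984, the values lay closer together, at 22.2, 20.3 and 19.0.

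The CTCF motif was the most frequent of those searched. It was found in 1090 of the 5559 windows, or 19.6% (18.6 to 20.7), against 0.934% of 10603 windows taken 1 kb to either side of the same summits and clear of all peaks. Introns held it in 15.0% of windows, 4.62 percentage points fewer (interval of the difference 3.27 to 5.98), farther intergenic regions in 12.6%, promoters in 4.22% and all regions of the list in 11.1%. In the regions of the same kind from each replicate's own list, the share was 19.2% in replicate 1 and 14.5% in replicate 2. The difference from farther intergenic regions was 6.97 points (3.03 to 10.2).

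The E-box CAGCTG, read by many helix-loop-helix factors, came next, in 7.95% of windows (7.27 to 8.69) against 4.55% of flanks, and the E-box CACGTG was in 3.31% against 1.33%. Motifs of myeloid factors stood in the same range. The PU.1 string, bound by an ETS factor of both myeloid and B cells, was in 7.90% of windows (7.22 to 8.64) and in 0.651% of flanks, a ratio of 12.1. It was less frequent than in introns, at 9.52% (difference −1.63 points, −2.63 to −0.617), and than in farther intergenic regions, at 12.1%. The C/EBP string, of the factors that drive granulocyte genes, was in 6.55% against 3.91% of flanks. AP-1, the Fos and Jun dimer, was in 6.39% against 2.84%, and RUNX in 5.61% against 2.82%. The composite ETS-IRF string was in 2.95% against 0.802%. The octamer ATGCAAAT, read by Oct factors and used by B cell genes, was in 1.35% against 0.556%.

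Of the 28 strings, 21 were more frequent than in flanks with an interval above 0, 2 were less frequent, and for 5 the interval held 0. The 2 below were GATA, a motif of erythroid and mast cell factors, at 0.684% against 1.61%, and TEAD, a motif used in tissues outside blood, at 0.809% against 1.56%. The windows were richer in G and C than their flanks, with a median of 52.5% against 45.5%, and the part of base composition in these shares was not tested. The ETS string CCGGAAGT was less frequent here than at promoters, in 0.809% of the intergenic windows and 5.29% of promoter windows. Introns were alike, at 0.646% (difference 0.163 points, −0.141 to 0.483), and farther intergenic regions held it in 0%. At least 1 of the CTCF, PU.1, C/EBP, RUNX and AP-1 strings was in 2308 windows, or 41.5%, against 10.5% of flanks, while 2442 windows, or 43.9%, held none of the 28.

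**Figure D1:**
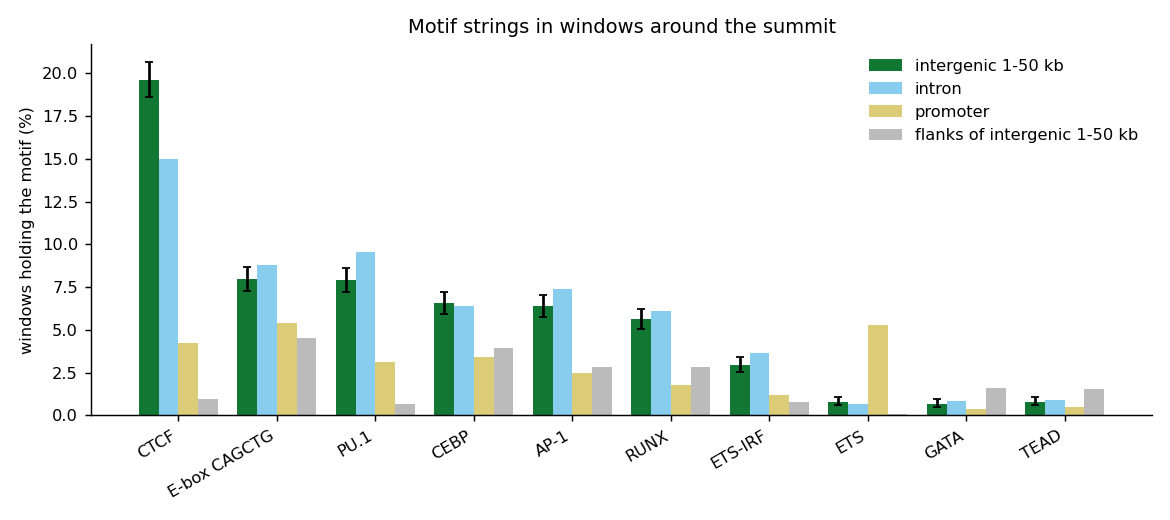
Share of 101 bp summit windows (y axis, percent) that hold each of 10 motif strings (x axis), in intergenic regions 1 to 50 kb from a start site (green, with 95% Wilson intervals), introns, promoters and the flanks of the intergenic regions. CTCF stands highest at 19.6% of intergenic windows, and GATA and TEAD are the motifs below their flanks.

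The motifs also differed in where they sat. Of CTCF matches within 100 bp of a summit, 68.4% lay within 20 bp, and the median distance was 14.5 bp. The median was 28.5 bp for PU.1, 36 bp for AP-1, 37 bp for RUNX and 46.5 bp for C/EBP. Within 50 bp of the summit there were 20.1 CTCF matches per 100 regions, and 1.04 per 100 regions over an equal length 400 to 500 bp away. For C/EBP the same values were 7.29 and 3.86, the flattest profile of the 5.

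**Figure D2:**
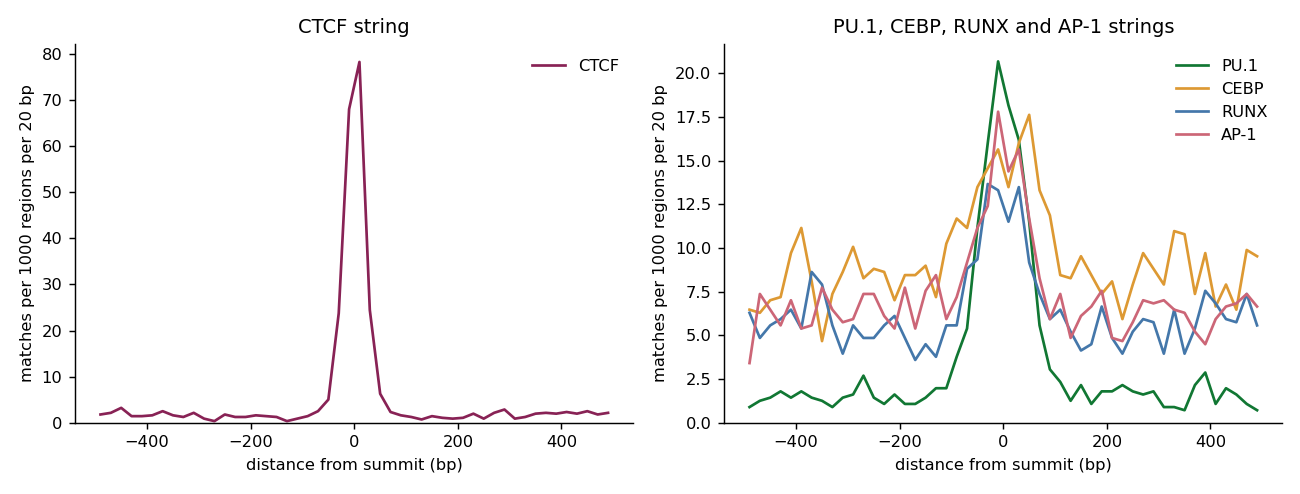
Number of motif matches per 1000 intergenic regions in bins of 20 bp (y axis) against the distance from the summit (x axis, bp), for CTCF (left) and for PU.1, C/EBP, RUNX and AP-1 (right, on its own scale). CTCF matches gather at the summit, with a median distance of 14.5 bp, and C/EBP matches are spread most widely.

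CTCF and PU.1 strings rarely shared a window. Only 11 of the 1090 CTCF windows held PU.1, or 1.01%, against 9.58% of the 4469 windows without CTCF (difference −8.57 points, −9.57 to −7.42). Taking PU.1, C/EBP, RUNX and AP-1 together, 8.99% of CTCF windows and 27.3% of the others held at least 1 (difference −18.3 points, −20.3 to −16.0). Among pairs of the myeloid motifs, C/EBP and AP-1 had the largest excess. They met in 32 windows, which is 8.79% of the C/EBP windows beside 6.39% with AP-1 among all. RUNX was in 7.14% of C/EBP windows beside 5.61% among all, and the remaining pairs lay closer to the share among all. No interval was computed for these pairs.

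Regions with CTCF were narrow and were listed less often in both replicates. Their median width was 277 bp (quartiles 250 and 320), against 368 bp (288 and 500) for those without it, while their median signal values were close, at 10.3 and 10.6. The CTCF string was in 37.97% of regions in the narrowest quartile, 150 to 274 bp wide, and in 4.33% of those in the widest, 472 to 1721 bp. PU.1 went the other way, from 4.50% to 9.16%. Both replicate lists held 30.7% of the CTCF regions and 45.5% of the others (difference −14.8 points, −17.8 to −11.6). The difference had the same sign in all 4 quartiles of signal value, from −6.44 to −17.7 points. Within quartiles of width it was not of 1 sign: −3.75 points in the narrowest (−7.39 to 0.111), 7.04 and 4.71 in the next and −22.0 in the widest, where only 60 regions held CTCF.

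The CTCF share also changed with distance. It was 20.7% among the 4319 regions 1 to 20 kb from the nearest start site and 15.7% among the 1240 regions 20 to 50 kb away (difference −5.00 points, −7.28 to −2.56). Within the nearer stretch it was nearly level, between 20.4% and 21.2% over 4 bands. The PU.1 share ranged from 6.43% at 1 to 2.5 kb to 9.11% at 20 to 50 kb, with intervals that overlap. AP-1 was in 4.23% of the nearest band (2.88 to 6.17) and 7.42% of the farthest (6.09 to 9.01), and these intervals overlap too.

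**Figure D3:**
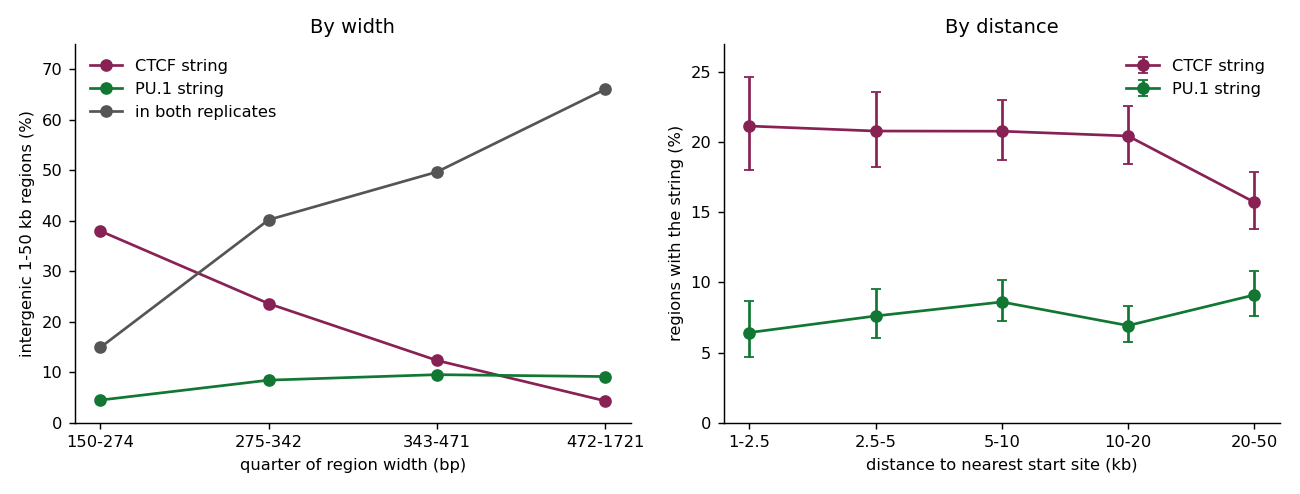
Left, the percent of intergenic regions with a CTCF string, with a PU.1 string and in both replicate lists, by quartile of region width (x axis, bp). Right, the percent with each string by distance to the nearest start site (x axis, kb), with 95% Wilson intervals. The CTCF share falls from 37.97% in the narrowest quartile to 4.33% in the widest, and from about 21% to 15.7% beyond 20 kb.

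Replicate 1 listed most of the intergenic regions, and replicate 2 listed a smaller share of them than of promoters and a slightly larger share than of introns. Of the 5559, 4977 overlapped a region of replicate 1, or 89.5%, where 91.9% of all regions of the pooled list did. Replicate 2 held 2397, or 43.1% (41.8 to 44.4), where 57.2% of all regions were found. The mean over the replicates was 66.3% ± 32.8 (SD, n = 2). Both lists held 2370 regions (42.6%, beside 56.5% of all), replicate 1 alone 2607 (46.9%, beside 35.4%), replicate 2 alone 27 (0.486%, beside 0.679%) and neither 555 (9.98%, beside 7.45%). In replicate 2 the difference from promoters was −32.2 points (−33.7 to −30.7) and that from introns 3.07 points (1.30 to 4.83). Against the farther intergenic regions the difference was 2.46 points with an interval from −2.82 to 7.55. In the authors' less strict list of replicate 2 the share was 91.1%, beside 94.1% of all regions. That of replicate 1 held 99.7%, beside 99.8%, and both held 90.8%, beside 93.9%.

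Signal went with presence. The pooled signal value of the intergenic regions had a median of 10.5 (quartiles 8.34 and 13.3, range 1.88 to 42.6), beside 10.1 in introns, 11.4 in farther intergenic regions and 12.5 at promoters. Replicate 2 held 12.3% of the weakest quartile and 82.2% of the strongest. Of the intergenic regions, 335 were in the top 10% of the whole list by signal value, or 6.03%, against 4.32% of introns (difference 1.70 points, 0.910 to 2.51), 9.89% of farther intergenic regions and 15.5% of promoters. Over the 2370 regions in both lists, replicate 1 and replicate 2 values were correlated with a Spearman rho of 0.743, and a Pearson correlation of 0.772 on the log2 scale. This is a description across regions of the same 2 libraries. Replicate 2 had the higher value in 28.8% of these regions and in 49.2% of regions of all kinds.

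**Figure D4:**
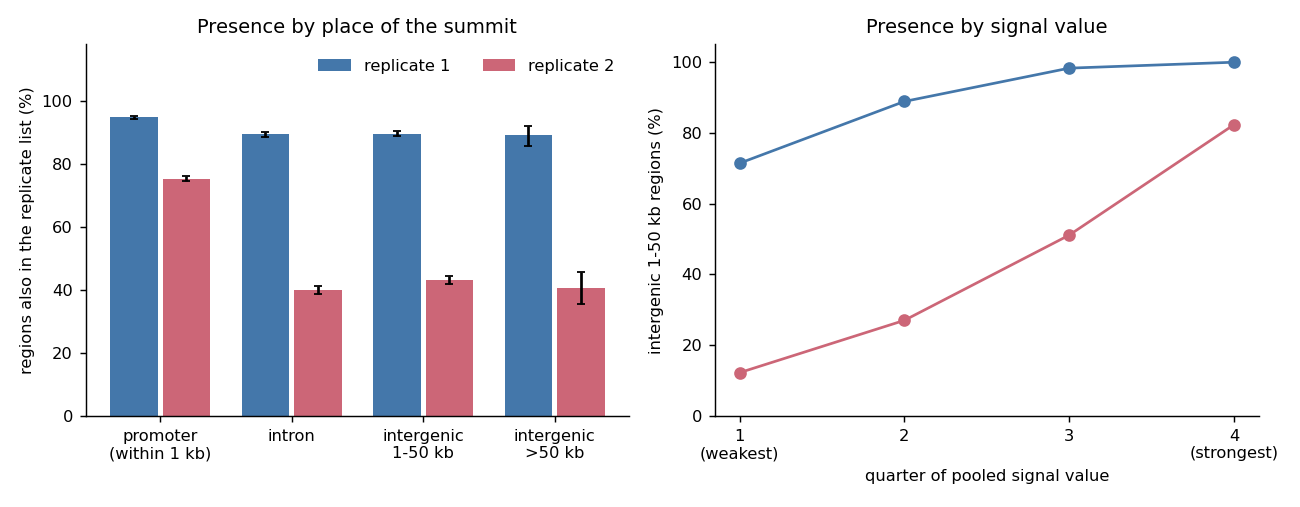
Left, the percent of regions of the pooled list that overlap a region of replicate 1 (blue) or replicate 2 (red), by the place of the summit (x axis), with 95% Wilson intervals. Right, the same for the intergenic regions 1 to 50 kb from a start site by signal quartile. Replicate 2 holds 43.1% of the intergenic regions, from 12.3% of the weakest quartile to 82.2% of the strongest.

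The nearest start site was that of a protein-coding gene for 2889 regions (52.0%), of a pseudogene for 1038 (18.7%) and of a lincRNA, a long intergenic noncoding RNA, for 815 (14.7%). The median distance was 9.54 kb to any start site and 17.1 kb to a protein-coding one. Regions lay upstream of their nearest start more often than downstream, at 59.9% (58.6 to 61.1). The excess was greatest at 1 to 2.5 kb, with 76.5% upstream, and gone at 20 to 50 kb, with 49.4% (46.6 to 52.1). A region inside the gene body cannot be a member, which takes away downstream positions close to a start. At the limits, the region 1000 bp from a start of Wrnip1 counted as a promoter (signal value 8.99) and the region 1002 bp from Gm17834 as intergenic (19.1). At the outer limit, the region 49777 bp from Zfp518b was kept (11.1) and that 50008 bp from Gm26686 was not (9.01). Of the intergenic regions, 1289 had another of their kind within 5 kb (23.2%) and 3688 within 50 kb (66.3%). The same counts for regions of other kinds are not given here, so whether these are clustered is not known.

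The word intergenic depends on the annotation. RefSeq, which was not used to choose the regions, placed 873 of them (15.7%) inside a gene and 369 (6.64%) within 1 kb of a transcript start. The 369 differed from the 4525 with neither: both replicates listed 51.2% of them (46.1 to 56.3) against 42.1% (40.6 to 43.5), CTCF was in 13.3% (10.2 to 17.1) against 20.4% (19.2 to 21.6), and PU.1 in 3.79% against 8.18%. Their ratio of observed to expected CpG was higher as well, with a median of 0.444 against 0.267.

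The strongest of all were regions whose sequence is not unique. Of the 10 with the highest signal values, 5 had a window with a near-identical copy elsewhere in the nuclear genome, where a copy means at least 90% identity over at least 80% of the window. Among all intergenic regions of this kind the share was 4.39% (3.88 to 4.96), 1.57 points above introns (0.908 to 2.26). Farther intergenic regions were alike, at 4.67% (difference −0.281 points, −3.01 to 1.54). Exons had 4.66% and promoters 3.41%. Of the 10, 3 matched the mitochondrial genome at 100% identity, and 2 of these 3 are among the 5 with copies. A match at 90% or more was found in 5 of all 5559. The highest value, 42.6, was 35.5 kb upstream of Pak3, a kinase of neurons, where the window had 8 near-identical placements in the nuclear genome, counting itself, and the replicates gave 28.8 and 35.9. The next was 12985 bp upstream of Abcb11, the bile salt export pump of the liver. It had 40.05 in the pooled list, 32.1 in replicate 1 and 41.8 in replicate 2. Its window matched mitochondrial DNA at 100% identity over at least 80% of the window. The others with a mitochondrial match were 17.1 kb upstream of Gm43393 (30.8, 26.5 and 31.3) and 40.9 kb downstream of the start of Gm47397 (29.5, 26.9 and 29.0). At all 3, the replicate 2 value was above the replicate 1 value, the less common order among these regions. How reads with several equal placements were handled is not given in the sources used here, and their part in these values was not tested. The window near Gm47397 is shown as an example. It held none of the 5 main motifs and so has no capitals.
Gm47397, chr12:97061504-97061604: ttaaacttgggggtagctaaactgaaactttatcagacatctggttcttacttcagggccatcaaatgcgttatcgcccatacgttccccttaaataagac
Without such copies, the strongest were 5.55 kb upstream of Sfpq, a nuclear RNA-binding protein, at 30.2 (25.8 and 24.4 in the replicates), and 24.2 kb downstream of the start of Gm37761, at 29.9 (26.3 and 22.3).

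Most genes on the list for mature neutrophils had such a region nearby. The lists were chosen with earlier results of these data known. The intervals count each gene as separate, although some genes of a list share regions. At least 1 region lay within 50 kb of the start of 30 of 36 genes for neutrophil receptors and cytosolic proteins, or 83.3% (68.1 to 92.1), where 27.6% of 21911 protein-coding genes had any. Their mean was 2.25 regions and their median 2, against 0.455 and 0 over all genes. The NADPH oxidase, which makes superoxide, had 7 of 8 genes with a region (mean 1.88), inflammatory cytokines and NF-kB feedback genes 23 of 30 (1.83), transcription factors of myeloid cells 22 of 31 (1.52) and interferon response genes 11 of 20 (1.50). Genes of granule proteins, which are transcribed in the bone marrow before release to the blood, reached 7 of 11 matched genes of primary granules (mean 1.45) and 8 of 18 of secondary and tertiary granules (0.778). When each region was assigned to its nearest coding start alone, both granule means fell below that of all genes, with differences of −0.0719 and −0.0870 regions. Lists of other cells and housekeeping genes were above the all-gene share too. They reached 14 of 20 for B cells (mean 1.2), 8 of 13 for dendritic cells and MHC class II, 9 of 16 for housekeeping, 10 of 20 for T cells, 7 of 13 for eosinophils, basophils and mast cells, 8 of 16 for survival and apoptosis, 7 of 14 for erythroid cells, 7 of 16 for monocytes and macrophages, 6 of 14 for natural killer cells and 5 of 12 for platelets. Lists from outside blood were lower, with 1 of 13 hepatocyte genes and 2 of 14 neuronal genes. A region was counted for every gene whose start lay within 50 kb, so neighbouring genes share regions and another start can be nearer. The part of gene density in these counts was not tested.

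Among the factors, the regions near the lineage genes themselves were few. Spi1, which encodes PU.1, had 1 region, 1.16 kb upstream, with signal values of 5.79 pooled, 6.09 in replicate 1 and 4.81 in replicate 2. Cebpa, the C/EBP that starts granulocyte fate, had 1, at 37.3 kb downstream, where a myeloid enhancer of this gene is known. Its value was 8.30 pooled and 8.04 in replicate 1, and the stricter list of replicate 2 did not hold it. Cebpe, needed for late granulocyte maturation, had 1 region, 10.7 kb downstream of its start, with 12.2, 11.9 and 8.68, and it held a CTCF match 3.5 bp from the summit. Cebpb, Cebpd, Gfi1 and Irf8 had none. Counts varied among the immediate early factors: Fos had 5, Egr1 5, Fosb, Junb and Jund 2 each, and Jun 0. The strongest near Fos, 18.5 kb upstream, stood at 18.04, 16.5 and 17.96 and lay in an enhancer that RefSeq's functional elements take from the VISTA collection. Junb had 2, at 1.28 and 7.50 kb upstream, both in both replicates, with pooled values of 5.23 and 6.50. The windows at Cebpa and Cebpe were:
Cebpa +37.3 kb, chr7:35156564-35156664: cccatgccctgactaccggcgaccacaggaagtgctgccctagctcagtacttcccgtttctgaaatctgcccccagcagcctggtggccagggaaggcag
Cebpe +10.7 kb, chr14:54701451-54701551: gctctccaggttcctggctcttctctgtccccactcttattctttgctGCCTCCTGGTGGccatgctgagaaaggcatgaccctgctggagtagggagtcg

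Of the receptor genes, Ptafr and Fcgr4 had several regions each. Ptafr, the receptor for platelet-activating factor, had 8 regions, with pooled values from 4.06 to 13.8, of which both replicates listed the 2 strongest. Fcgr4, an IgG receptor, had 7, from 5.74 to 11.7. For most of the regions of Ptafr and of Fcgr4 the start of another gene was nearer. Csf3r, the receptor for G-CSF, had 3. That 6.67 kb upstream held a repeated C/EBP match, with values of 10.4, 9.65 and 9.66, the replicates being nearly equal. That 5.39 kb upstream also held C/EBP, with 5.29 in the pooled list and no entry in either replicate list, and that 34.2 kb upstream held CTCF (9.08, and 8.47 in replicate 1 alone). Cxcr2, which draws neutrophils out of the marrow, had 2, the stronger 13.3 kb downstream of its start with 13.7, 12.1 and 12.6. Cxcr4, which holds and returns them there, had 3, of which those 15.9 and 22.7 kb upstream were in both replicates, with pooled values of 13.5 and 12.8. Il1r2, the decoy receptor for interleukin 1, had 2 of nearly equal value, 8.32 and 8.39, in replicate 1 alone. The C/EBP windows upstream of Csf3r read:
Csf3r -6.7 kb, chr4:126017828-126017928: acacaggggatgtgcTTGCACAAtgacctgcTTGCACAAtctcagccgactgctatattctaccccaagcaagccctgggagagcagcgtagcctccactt
Csf3r -5.4 kb, chr4:126019111-126019211: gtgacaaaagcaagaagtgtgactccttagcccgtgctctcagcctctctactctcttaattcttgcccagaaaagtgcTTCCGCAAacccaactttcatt

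The surface marker Ly6g and the secreted protein gene Retnlg showed repeated sequence. Ly6g, the antigen by which mouse neutrophils are stained, had 3 regions, at −35.0, 20.5 and 34.1 kb, with pooled values of 8.66, 8.73 and 7.61, none of them in the stricter list of replicate 2. All 3 held CTCF. The windows at −35.0 and 20.5 kb shared a run of 34 identical bases with the CTCF match, and that at 34.1 kb held 36 bases of the first on the opposite strand. The −35.0 kb window had 3 near-identical placements in the genome, counting itself. They are shown because the orientation of the CTCF match differs:
Ly6g -35.0 kb, chr15:75120232-75120332: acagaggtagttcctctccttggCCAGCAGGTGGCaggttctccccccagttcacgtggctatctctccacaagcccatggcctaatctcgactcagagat
Ly6g +20.5 kb, chr15:75175680-75175780: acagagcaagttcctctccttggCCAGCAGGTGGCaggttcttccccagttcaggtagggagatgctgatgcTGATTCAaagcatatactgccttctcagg
Ly6g +34.1 kb, chr15:75189274-75189374: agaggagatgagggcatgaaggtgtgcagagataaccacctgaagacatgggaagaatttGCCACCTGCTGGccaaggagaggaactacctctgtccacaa
Retnlg, a resistin-like gene of neutrophils, had 3 regions, each with a PU.1 match, with pooled values of 12.3, 8.08 and 9.48 at 38.8, 7.44 and 3.79 kb upstream. Replicate 1 gave 11.5, 7.76 and 9.28, and replicate 2 listed none of them. The first lies 8.74 kb upstream of the paralog Retnla and the second 7.44 kb upstream of Retnlg. Shifted by 11 bp against each other, these windows agree at 87 of 90 positions, or 96.7%, and whether their reads could be told apart was not tested.
Retnlg -38.8 kb, chr16:48833762-48833862: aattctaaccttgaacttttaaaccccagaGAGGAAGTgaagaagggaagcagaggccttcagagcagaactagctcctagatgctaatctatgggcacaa
Retnlg -7.4 kb, chr16:48865129-48865229: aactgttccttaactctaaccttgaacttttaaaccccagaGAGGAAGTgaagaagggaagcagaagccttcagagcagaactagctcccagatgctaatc
Retnlg -3.8 kb, chr16:48868781-48868881: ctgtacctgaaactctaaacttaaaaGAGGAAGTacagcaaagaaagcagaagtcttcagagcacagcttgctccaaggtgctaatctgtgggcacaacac

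Of the granule and alarmin genes, the collagenase gene Mmp8 had 2 regions, 37.0 and 45.0 kb downstream of its start, with 21.6 and 14.3 pooled, 20.6 and 11.5 in replicate 1, and 14.5 and 12.4 in replicate 2. Both Mmp8 regions lay nearer the start of Gm47616, at 4.045 and 4.011 kb. Mmp9, the gelatinase, had 1 region 16.1 kb upstream, with 16.2, 14.5 and 13.1, and the start of Zfp335os was nearer, 10.6 kb away. Camp, which encodes cathelicidin, had 2, at 9.88 and 10.1, the first with CTCF. The serine protease gene Prtn3 and the protease inhibitor gene Serpinb1a had 3 each, with pooled values from 7.64 to 12.1 and from 6.84 to 13.6. The strongest of each lay nearer another start, 5.71 kb from Misp and 11.3 kb from Wrnip1. Slc11a1, a metal transporter of phagosomes, had 4, the strongest at 11.2. S100a8, a subunit of calprotectin, had 1 at 6.67, in neither replicate list. Ltf and Lcn2, of the secondary granules, had none. Among the oxidase genes, the cytosolic subunit Ncf1 had 3, from 4.56 to 9.27.

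Il1b and Mcl1 had regions on both sides of their start, with more of them upstream. Il1b, the cytokine gene, had 7 regions with pooled values from 7.87 to 16.3, of which 3 were in both replicates. The strongest was 32.7 kb downstream, with 16.3, 14.4 and 13.2, and was counted for Il1a as well. That 42.7 kb downstream held PU.1, and its nearest coding start was that of Il1a, 18.5 kb away. Nfkbia, the NF-kB inhibitor, had 5, from 4.80 to 9.16, none in the stricter list of replicate 2. Mcl1, the survival factor on which neutrophils depend, had 6, and 4 of their summits lay in a region that RefSeq lists as a regulatory region of Mcl1 tested by CRISPR interference. Of the 3 in both replicate lists, the strongest, 13.3 kb upstream, had the values farthest apart. They were 17.5 in replicate 1 and 9.11 in replicate 2, and 16.5 pooled. That 7.98 kb upstream, with AP-1 and PU.1, gave 7.34, 7.25 and 6.42. The 2 with C/EBP, at 6.42 and 4.95 kb upstream, gave 4.56 and 5.65 and were in replicate 1 alone. The interferon-induced Ifitm3 had 7, from 6.87 to 13.7, and most of these were counted for its neighbour Ifitm1 as well. The Mcl1 windows with myeloid motifs were:
Mcl1 -8.0 kb, chr3:95650761-95650861: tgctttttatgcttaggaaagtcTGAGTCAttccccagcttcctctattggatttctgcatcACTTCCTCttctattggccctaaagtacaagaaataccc
Mcl1 -6.4 kb, chr3:95652318-95652418: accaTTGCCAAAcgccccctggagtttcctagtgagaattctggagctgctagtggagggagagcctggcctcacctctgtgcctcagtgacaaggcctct
Mcl1 -4.9 kb, chr3:95653790-95653890: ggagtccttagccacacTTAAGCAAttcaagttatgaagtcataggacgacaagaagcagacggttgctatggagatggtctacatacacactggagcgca

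**Figure D5:**
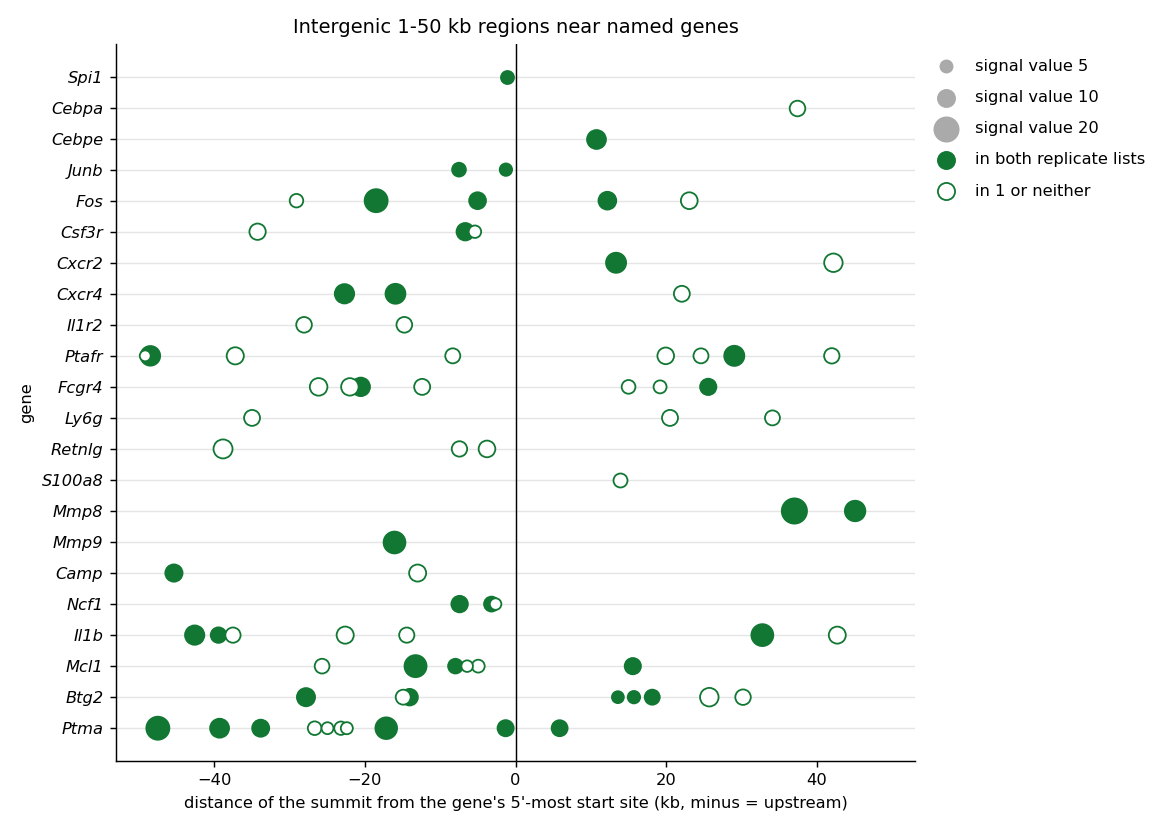
Intergenic regions within 50 kb of 22 named genes, one gene per line, by distance of the summit from the gene's 5'-most start site (x axis, kb, minus is upstream). The area of a point is proportional to the pooled signal value, and filled points are in both replicate lists. Mmp8 and Mmp9 have few, strong regions, while Ptma, Ptafr and Il1b have many.

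Genes of the lists for B cells and other cells had regions as well. Fcer2a of the B cell list had 3, the strongest 18.6, but that region lies 4.40 kb from the start of Stxbp2, a gene of granule release. Ccr7 of the T cell list had 6, from 5.42 to 12.5. Pf4 and Ppbp, the platelet chemokine genes, shared 2, of which the stronger, at 23.8, 20.8 and 21.9 and with PU.1, ranked 36 among all the intergenic regions. Both were counted for Cxcl3 of the inflammatory list as well, and the weaker lay 3.79 kb from the Cxcl3 start. Klrb1c of the natural killer cell list had 5 and Adgre1 of the macrophage list 5. With 6 of 8 B cell marker promoters open in both replicates, whether the regions near B cell genes come from neutrophils was not tested.

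The highest counts of all belonged to broadly expressed genes as well. Ptma, which encodes prothymosin alpha, had 10 regions, from 4.83 to 18.1, of which the strongest was 47.5 kb upstream with 18.1, 16.7 and 14.6. Rpia, of the pentose phosphate pathway, had 9, of which 5 held CTCF. For that 48.1 kb downstream of the Rpia start, the nearest start was that of the immunoglobulin gene Igkc, 17.7 kb away. Whether the regions near Rpia come from neutrophils was not tested. Btg2, an antiproliferative gene, had 8, and 3 of them lay in 1 VISTA enhancer. Ccr1, a chemokine receptor of myeloid cells, had 8, among them a region 17.6 kb upstream at 19.2, 17.2 and 14.6. Ckap4 had 8, from 4.99 to 12.8.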

How the data were processed

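ATAC-seq peak lists of 2 libraries of blood neutrophils were used, with replicate numbers from the labels. The authors deposited the lists on mm10, per the labels, with a signal score in column 7 and a summit offset in column 10. The score is undefined there and has no unit here. Aligner and peak caller: not given in the sources used here. Per the file headers, the summit offset and other deposited values were used as given. The main list was the pooled conservative list that passes the irreproducible discovery rate; the replicate lists of that kind, the less strict pseudoreplicate lists and the pooled optimal list served for comparison. Depth is unknown, since no counts were used.

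Overlapping intervals were merged (at least 1 bp), keeping the highest signal value and its summit. Start sites came from GENCODE M21, and genes of RefSeq on GRCm38.p6, the same build, were a second annotation. Windows of 101 bp were searched with regular expressions on both strands and compared with windows 1 kb away that overlapped no peak of any list. Beside those in the results, the strings were CCGGAAGT (ETS), TTGCGCAA (C/EBP, also matched by the wider string), TGACGTCA (CRE), TTCCNGGAA (STAT), GGGTGTGG (KLF), GGGGCGGGG (SP), AGATAAG (the motif of erythroid and mast cell factors in the results), CCAATCAG (NFY), GCGTGGGCG (EGR), TTACGTAA (PAR-bZIP), CAAAGTCCA (HNF4), CATTCCA (TEAD), an E-box read by many helix-loop-helix factors, CAGCTG, another read by Myc, Max and Usf factors, CACGTG, and longer ones for CTCF, MARE (which holds an AP-1 match), IRF, ETS-IRF, NF-kB, NRF1, YY1, GRE and GFI1. A fixed string misses variant sites. Copies were found with BLAST+ 2.17.0 (90% identity over 80% of the window). Python 3.11.15, pandas 2.3.3, pysam 0.24.0 and samtools 1.23.1 were used, and the merging, classes, motif search and intervals were checked on simulated data.

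The 19 gene lists hold 338 entries. Named were the 10 strongest regions, the 2 genes of each list with most regions, every region near landmark genes, the 5 genes with most regions (8 regions tied several, taken alphabetically), the regions at the distance limits and the 2 strongest with each main motif. Genes of some lists are given by counts only, and some genes that this rule names are not reported here. The regions and lists were chosen with earlier results of these data known. Sequences on chromosome 18 are not shown. With 1 group, no test between groups of samples was made.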

Additional observations from a re-analysis of the deposited data

How the results depend on the processing

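Directions held for the 5 main motifs in all 35 recomputed differences from flanks, all above 0, while their sizes moved. Leaving out a replicate means using the other replicate's own list. The share of regions that were intergenic and 1 to 50 kb from a start site then ran from 16.6% to 23.1%, the CTCF difference from 13.5 to 18.3 points, PU.1 from 6.77 to 7.37, C/EBP from 2.48 to 3.01, RUNX from 3.02 to 3.12 and AP-1 from 3.83 to 4.36. The mean number of regions beyond that of all genes ran from 0.605 to 1.49 for myeloid factors and from 0.632 to 1.93 for mature neutrophil genes. Windows of 100 bp on either side gave 9.28 points for PU.1, 4.48 for C/EBP, 3.72 for RUNX and 4.41 for AP-1. Regions at or above the list's median signal gave 3.75 for C/EBP, 3.25 for RUNX and 4.54 for AP-1, with 99.3% in replicate 1 and 70.3% in replicate 2. The less strict lists gave 99.7% and 91.1%. RUNX was 2.91 points with summits outside repeats and 2.88 outside RefSeq genes and starts. The last setting, and leaving out windows with copies or a mitochondrial match, were chosen after seeing the data, and they moved none of the other motif differences or replicate shares beyond their spread. Myeloid factors stood 1.87 regions above all genes with a 100 kb window. With protein-coding starts only, 64.4% of regions lay upstream. Of 76 recomputed gene list values, 6 changed sign. With the nearest coding start alone these were primary granules at −0.0719, secondary and tertiary granules at −0.0870, erythroid cells at −0.111 and platelets at −0.254. Leaving out a replicate, erythroid cells ran from −0.201 to 0.199 and neurons from −0.158 to 0.0847. The cause was not tested. No paired analysis was possible because there is only 1 group. The unknown depth limits every statement on absence from the list of replicate 2.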
